A study of Mus musculus with 23 samples.

Results

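The mitosis and spindle genes described here are 37 genes named by symbol, and each was found as 1 Ensembl identifier among the 55401 rows of the deposited count table. They cover the cyclins and kinases that start mitosis (6 genes), the spindle assembly checkpoint (4), the activators and targets of the anaphase-promoting complex (4), the chromosomal passenger complex (4), the centromere and kinetochore (6), mitotic kinesins (5), spindle microtubule proteins (4), cytokinesis (2), and the chromosome enzyme Top2a with the proliferation marker Mki67 (2). In a dividing cell, cyclin B bound to Cdk1 drives entry into mitosis, microtubules of the spindle attach to kinetochores, and the checkpoint holds the cell until every kinetochore is attached. The anaphase-promoting complex, switched on by Cdc20, then marks cyclin B and securin for destruction, so that separase can cut cohesin and the chromosomes part. Docetaxel is a taxane that stabilises microtubules and keeps the checkpoint active in dividing cells, and for that reason its exposure is described first.

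Male C57BL/6 mice aged 8 to 10 weeks carried flank tumours of TC2Ras, the TRAMP-C2 mouse prostate adenocarcinoma line transduced with a lentivirus for activated H-ras, a gene that all groups therefore share. A plasmid was delivered by sonoporation (ultrasound with microbubbles) to the tibialis anterior leg muscle, not to the tumour: either the control plasmid (empty vector, EV) or one encoding IL-27 joined to the pepL peptide (IL-27 vector, IL27v). Tumours were then exposed ex vivo to media, docetaxel, cabozantinib (an inhibitor of MET and VEGF receptor kinases), anti-PD-L1 antibody, IL-27, or cabozantinib plus IL-27. Each of the 12 groups has 2 libraries, apart from a single one for IL-27 in IL27v. The sources used here state no drug doses or exposure times and do not say whether replicates came from separate animals. The p-values therefore reflect the spread between libraries only, and that spread may be technical.

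Promoters of many mitotic genes are known for a short element called the cell cycle genes homology region, whose core is TTTGAA, and for CCAAT boxes, bound by NF-Y. The 4 stretches below are shown because they let a reader see what these genes share in sequence whichever way their levels differed after docetaxel: Ube2c and Cdc20 had positive differences, Top2a and Kif11 negative ones. Each is the 150 bases before the transcription start in the RefSeq promoter table (GRCm38.p6), on the gene's strand, 5′ to 3′, at chr2:164769779-164769928 (plus strand) for Ube2c, chr4:118437344-118437493 (minus) for Cdc20, chr11:99024190-99024339 (minus) for Top2a and chr19:37376232-37376381 (plus) for Kif11. Capitals mark TTTGAA or CCAAT on either strand, so that TTCAAA and ATTGG are the same letters read from the other strand.
Ube2c: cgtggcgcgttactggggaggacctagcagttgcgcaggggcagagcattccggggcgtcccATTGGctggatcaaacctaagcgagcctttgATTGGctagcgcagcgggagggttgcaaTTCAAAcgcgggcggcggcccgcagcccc
Cdc20: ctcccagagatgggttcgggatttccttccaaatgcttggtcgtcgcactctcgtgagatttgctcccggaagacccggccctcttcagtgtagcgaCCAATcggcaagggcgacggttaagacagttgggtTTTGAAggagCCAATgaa
Top2a: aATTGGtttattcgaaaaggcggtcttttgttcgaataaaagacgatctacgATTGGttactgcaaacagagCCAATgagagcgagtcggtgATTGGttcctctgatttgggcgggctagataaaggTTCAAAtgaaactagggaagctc
Kif11: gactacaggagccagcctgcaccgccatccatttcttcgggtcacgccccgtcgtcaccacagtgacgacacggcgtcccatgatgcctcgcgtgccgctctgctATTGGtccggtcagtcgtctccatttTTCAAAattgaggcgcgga
Each window holds TTTGAA 1 time, and CCAAT occurs 2 times in Ube2c, 2 in Cdc20, 4 in Top2a and 1 in Kif11. Of the 37 genes, 32 had an entry in the promoter table, and within 300 bases (250 before and 50 after the start) 24 held TTTGAA and 24 held CCAAT, on either strand. Those are 75% each, against 20.2% and 41.1% of all 27025 genes in the table. Both motifs occurred together in 21 of the 32 (65.6%), against 7.97% of all genes. In 41 other mitotic genes TTTGAA was in 56.1%, CCAAT in 68.3% and both in 43.9%. In 21 DNA replication genes these shares were 9.52%, 66.7% and 9.52%, so CCAAT was nearly as frequent in both lists as in the 32. Birc5, Mad2l1, Nuf2, Nusap1 and Pttg1 held neither motif. The letters are a description of the window and not evidence of binding.

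Library totals ran from 47641781 to 83088346 counts, and every gene of the 37 was well covered: the lowest count in any library was 345, for Pttg1. Levels are CPM, counts scaled to a common library size with TMM factors, and 37 of 37 genes passed the low-count filter into the edgeR fit of 24440 genes. The labelled epithelium was weakly marked: Krt8 had a median of 19.6 CPM, but Krt18, Epcam, Cdh1 and Krt7 had medians of 0.431, 0.0615, 0.529 and 0 CPM. The libraries also fell into sets by transcripts of other tissues. In 9 EV libraries, among them both media and both docetaxel libraries, 13 skeletal muscle genes summed to 0.985 to 17.0 CPM. In 5 libraries, 3 of EV and both IL27v media libraries, the neutrophil gene Ngp was at 14.1 to 18.8 CPM and the muscle genes summed to 463 to 681 CPM. In 8 other IL27v libraries the muscle genes summed to 595 to 938 CPM and Ngp was at 0. Ngp does not stand for the whole neutrophil list of 8 genes, whose sum was 232 and 254 CPM in IL27v docetaxel against 58.8 and 76.6 CPM in the IL27v media pair, with S100a8 and S100a9 reaching 78.3 and 162 CPM at their highest over all libraries. IL27v docetaxel 1 was in none of these sets, with 27.2% of its counts from the single ribosomal RNA gene CT010467.1. Within IL27v the docetaxel and media libraries were therefore never in the same set, and docetaxel and set cannot be told apart there.

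Summed over the 37 genes, the level was 3881 and 3651 CPM in the EV media pair, 3836 and 2882 with docetaxel, 4526 and 3227 in IL27v media, and 2648 and 3078 in IL27v docetaxel. The IL27v docetaxel pair thus lay below all 4 media libraries, while EV docetaxel 1 lay inside the EV media pair. In bulk tissue a lower sum can come from fewer dividing cells or from less of these RNAs per cell, which cannot be told apart. The sums may also carry each library's trend of level with transcript GC content, described further on. The slope of that trend was -12.4 in IL27v media 1, with the highest sum, and 6.75 in EV docetaxel 2, with 2882 CPM. It was also negative in IL27v media 2 (-4.30), with 3227 CPM. The part of the trend in the sums was not tested.

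**Figure D1:**
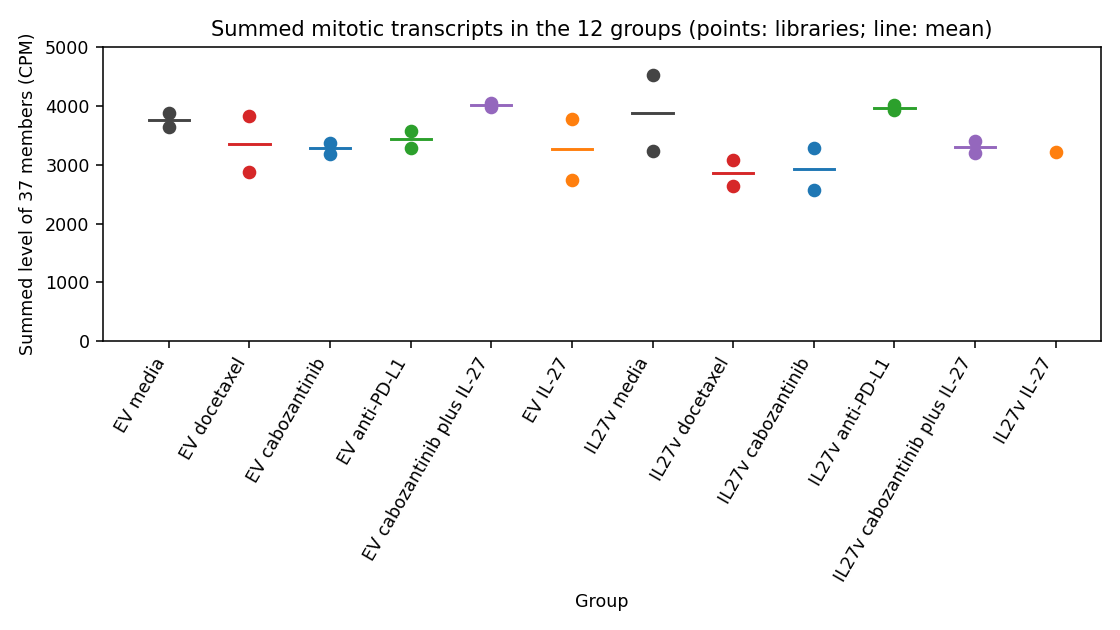
Summed level of the 37 mitosis and spindle genes (CPM) in each library of the 12 groups, with a line at the mean of each pair. The sums run from 2576 CPM in IL27v cabozantinib 2 to 4526 CPM in IL27v media 1, and pairs differ by as much as the groups do.

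The docetaxel difference from media was averaged over the EV and IL27v vectors and tested with edgeR's quasi-likelihood test and Benjamini-Hochberg adjustment over all 24440 genes. No gene of the 37 reached an adjusted p under 0.05, in a comparison where 1.79% of all genes did. An unadjusted p under 0.05 was found for 10 of 37, 5 with higher and 5 with lower levels, against a background of 15.3% of all genes (10.5% higher and 4.81% lower). DESeq2 called 3: Top2a lower, and Plk1 and Ube2c higher, where it called 9.51% of the genes it gave an adjusted p. Across the 37 the median log2 difference was -0.28, with 13 positive and 24 negative, against a median of 0 over all genes. The sign of the difference varied with role, and role coincides in part with GC content, as described further on.

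The 4 genes that act at the exit from metaphase all had positive differences in the mean over the vectors, while 3 of 4 were positive in EV and 3 of 4 in IL27v. Cdc20, the activator of the anaphase-promoting complex, was at 75.2 and 44.0 CPM in the EV media pair, 85.0 and 124 with docetaxel, 46.4 and 59.4 in IL27v media, and 82.9 and 104 in IL27v docetaxel. All 4 docetaxel libraries lay above all 4 media libraries, with a log2 difference of 0.82 ± 0.33 (SE) and an edgeR adjusted p of 0.25. Ube2c, the ubiquitin-conjugating enzyme of the same complex, was at 52.9 and 49.3 against 67.5 and 105 CPM in EV, and at 37.2 and 40.7 against 69.7 and 71.3 CPM in IL27v. Again no docetaxel library overlapped the media libraries (0.81 ± 0.25, edgeR adjusted p = 0.12). Part of Ube2c lies over the muscle gene Tnnc2 on the opposite strand, sharing 592 exonic bases or 22.8% of its exonic length, and the labels do not say whether counting used strand. Tnnc2 was at 0 and 0.0231 CPM in the EV media pair and at 0.348 and 0.0497 with docetaxel, near 0 beside Ube2c. In IL27v, Tnnc2 was at 27.1 and 23.4 CPM in media and 0.855 and 34.6 in docetaxel, and its part in the Ube2c values there was not tested. Securin (Pttg1), which holds separase inactive, had a difference of 0.18 ± 0.31, and separase itself (Espl1) one of 0.46 ± 0.23, with edgeR adjusted p of 0.87 and 0.35.

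The chromosomal passenger complex, which corrects wrong attachments between kinetochore and microtubule, also had 4 positive differences of 4, with a median of 0.38. Within the vectors, 3 of 4 were positive in EV and 4 of 4 in IL27v. Survivin (Birc5) was at 75.3 and 47.2 CPM in the EV media pair, 93.3 and 129 with docetaxel, 54.5 and 56.9 in IL27v media, and 64.2 and 76.8 in IL27v docetaxel. Its media and docetaxel libraries overlapped through EV media 1 (0.60 ± 0.26, edgeR adjusted p = 0.28). Borealin (Cdca8) had 0.49 ± 0.24, the scaffold Incenp 0.28 ± 0.17 and the kinase Aurkb 0.17 ± 0.17, with edgeR adjusted p of 0.34, 0.42 and 0.68.

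Among the cyclins and kinases that start mitosis, Plk1 stood apart from the other 5. Plk1, the polo-like kinase needed for centrosome maturation and mitotic entry, was at 44.8 and 45.0 CPM in the EV media pair and at 66.5 and 65.8 with docetaxel, and at 23.5 and 36.6 in IL27v media and 58.5 and 60.1 in IL27v docetaxel. The lowest docetaxel library was above the highest media library, and the replicates of both docetaxel pairs lay close together (0.77 ± 0.22, edgeR adjusted p = 0.091). Cyclin B2 (Ccnb2) had a difference of 0.31 ± 0.26 and Aurka, the spindle pole kinase, 0.07 ± 0.17. Cyclin B1 (Ccnb1, -0.33 ± 0.22), cyclin A2 (Ccna2, -0.28 ± 0.19) and their partner Cdk1 (-0.20 ± 0.20) had negative values, and the smallest edgeR adjusted p of these 5 was 0.47.

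The checkpoint genes had 4 negative differences of 4, with a median of -0.39, while 3 of 4 were negative in EV and 4 of 4 in IL27v. Bub1, a kinase that recruits checkpoint proteins to kinetochores, was at 93.4 and 103 CPM in the EV media pair, 91.8 and 42.6 with docetaxel, 120 and 83.0 in IL27v media, and 45.0 and 65.4 in IL27v docetaxel. EV docetaxel 1 lay above IL27v media 2, so the 4 docetaxel and 4 media libraries overlapped (-0.71 ± 0.29, edgeR adjusted p = 0.25). Bub1b (-0.37 ± 0.20) and Mad2l1 (-0.24 ± 0.18), both parts of the complex that restrains Cdc20, and the kinase Ttk (-0.41 ± 0.26) were also negative, with edgeR adjusted p of 0.38, 0.52 and 0.46.

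At the centromere and kinetochore 1 gene had a positive and 5 a negative difference. Cenpa, the histone variant that marks centromeres, was at 65.5 and 39.2 CPM in the EV media pair, 65.8 and 80.8 with docetaxel, 44.0 and 55.7 in IL27v media, and 74.5 and 74.0 in IL27v docetaxel. Its docetaxel libraries lay above all media libraries, though EV docetaxel 1 exceeded EV media 1 by a narrow margin (0.53 ± 0.25, edgeR adjusted p = 0.32). The kinetochore motor Cenpe (-0.65 ± 0.33), Cenpf (-0.66 ± 0.41), and the Ndc80 complex subunits Ndc80 (-0.31 ± 0.21), Nuf2 (-0.41 ± 0.23) and Spc25 (-0.38 ± 0.21) lay in the other direction, with edgeR adjusted p of 0.36 to 0.49.

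The kinesins and spindle microtubule proteins had 8 negative differences of 9, and the exception, Kif20a, was near 0 (0.03 ± 0.18). Kif11, the motor that pushes spindle poles apart, was at 94.6 and 105 CPM in the EV media pair, 87.9 and 40.3 with docetaxel, 151 and 67.4 in IL27v media, and 48.7 and 60.2 in IL27v docetaxel (-0.82 ± 0.33, edgeR adjusted p = 0.25). EV docetaxel 1 again lay inside the media range. Prc1, which bundles the microtubules of the central spindle, was at 129 and 115 CPM in the EV media pair and at 109 and 71.7 with docetaxel, and at 155 and 127 in IL27v media and 81.8 and 79.3 in IL27v docetaxel. Every docetaxel library was below every media library for Prc1 (-0.62 ± 0.23, edgeR adjusted p = 0.20). Nusap1, which binds spindle microtubules near chromosomes, was at 80.2 and 70.8 CPM in the EV media pair, 88.6 and 63.1 with docetaxel, 79.8 and 61.5 in IL27v media, and 29.1 and 46.0 in IL27v docetaxel. Its pairs overlapped in EV and were apart in IL27v (-0.45 ± 0.19, edgeR adjusted p = 0.27). Hmmr had -0.54 ± 0.29 and the Aurka activator Tpx2 -0.13 ± 0.18. Among the other kinesins the values were -0.30 ± 0.22 for Kif4, -0.19 ± 0.26 for Kif23 and -0.11 ± 0.18 for Kif2c.

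Top2a, the topoisomerase that untangles chromosomes, had the largest negative difference of the 37. It was at 509 and 545 CPM in the EV media pair and at 382 and 233 with docetaxel, and at 768 and 451 in IL27v media and 245 and 283 in IL27v docetaxel. Like Prc1 it did not overlap between the 4 docetaxel and the 4 media libraries (-0.99 ± 0.28, edgeR adjusted p = 0.079). Mki67, the gene of the Ki-67 antigen of cycling cells, was at 262 and 293 against 248 and 118 CPM in EV, and at 328 and 140 against 122 and 167 CPM in IL27v. For Mki67 the pairs overlapped within IL27v (-0.65 ± 0.35, edgeR adjusted p = 0.38). The cytokinesis genes Anln (-0.53 ± 0.33) and Ect2 (-0.58 ± 0.39) were negative, with edgeR adjusted p of 0.44 and 0.48.

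In all, 4 of the 37 genes lay higher in every docetaxel library than in any media library (Plk1, Cdc20, Ube2c and Cenpa), where 5.14% of all genes did, and 2 lay lower (Top2a and Prc1), where 3.55% did.

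**Figure D2:**
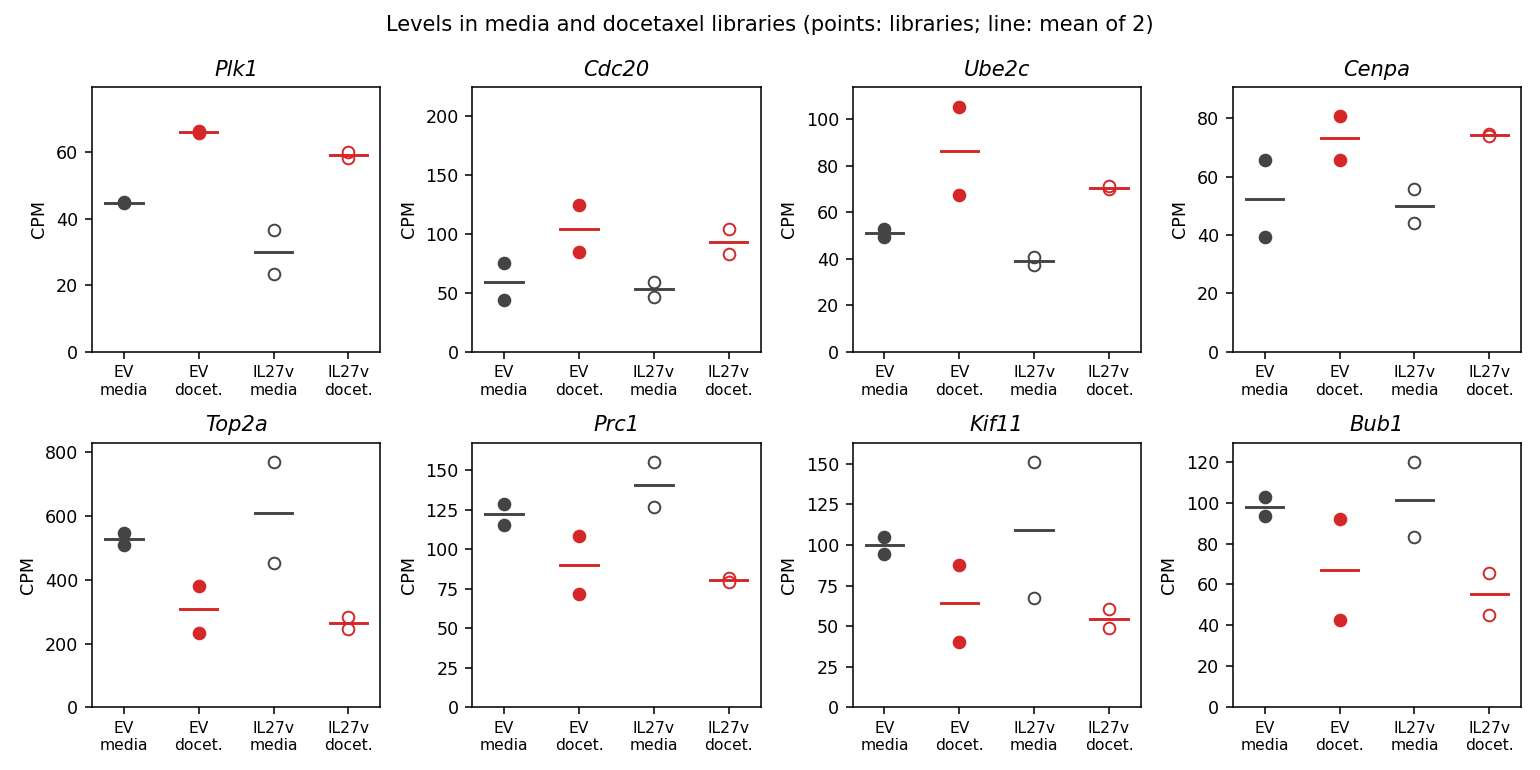
Levels (CPM) of 8 genes in the 4 media (grey) and 4 docetaxel (red) libraries, filled for EV and open for IL27v, with a line at each pair's mean. Plk1, Cdc20, Ube2c and Cenpa do not overlap between docetaxel and media with docetaxel higher, Top2a and Prc1 with docetaxel lower, while Kif11 and Bub1 overlap.

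Within each vector the pattern was unequal in size. In EV, edgeR called none of the 37 and 0% of all genes. There 2 of the 37 had an unadjusted p under 0.05 (Birc5 and Ube2c, background 2.94%), DESeq2 called 0 (0.166% of the genes it tested), and the median difference was -0.05. That median was 0.14 without EV docetaxel 2 and -0.26 without EV docetaxel 1. In IL27v, edgeR called none of the 37 where 2.79% of all genes were called, 13 had an unadjusted p under 0.05 (4 higher and 9 lower, with a background of 14.9%, 10.4% higher and 4.53% lower), and the median was -0.49. DESeq2 called 6 in IL27v (10.8% of the genes it tested): Espl1, Incenp and Plk1 higher, and Top2a, Spc25 and Nusap1 lower. Between the vectors, 7 genes were positive in both, 19 negative in both and 11 of opposite sign, so 70.3% had the same sign, against 64.7% of all genes with a difference other than 0 under both vectors. The difference between the docetaxel effects, IL27v minus EV, was called by edgeR for none of the 37 and for 0.0205% of all genes, and DESeq2 called 0 (1.22% of the genes it tested). Unadjusted p-values under 0.05 were found for 3 (background 6.15%). Those 3 were Espl1 (1.16 ± 0.46), Spc25 (-0.93 ± 0.42) and Nusap1 (-0.92 ± 0.38), with edgeR adjusted p of 0.72, 0.79 and 0.76.

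The IL27v values lean on 1 control library. Without IL27v media 1 the median over the 37 in IL27v was -0.08 in place of -0.49, and the 2 media libraries differed among themselves, with Top2a at 768 and 451 CPM and Mki67 at 328 and 140. Keratinocyte genes, 8 in the list, summed to 3696 and 3438 CPM in IL27v docetaxel and 24.0 and 2.14 CPM in IL27v media, but to 2.46 and 5.32 CPM in EV docetaxel and 2.37 and 6.76 CPM in EV media. Their part in the IL27v values was not tested, and in EV the docetaxel values lay within the media range. The higher sum of the 8 neutrophil-list genes in IL27v docetaxel, given above, goes along with the same comparison, and its part was not tested. The list did not move as 1: Ngp was at 18.8 and 16.7 CPM in IL27v media and at 0 in both IL27v docetaxel libraries. In EV that sum was 3.18 and 2.72 CPM in media and 0.927 and 1.01 CPM in docetaxel. The sum of the 5 epithelial genes was 14.6 and 1.97 CPM in IL27v media and 124 and 130 in IL27v docetaxel. It was 27.5 and 18.04 in EV media and 28.7 and 124 in EV docetaxel. Different genes made up these sums. In IL27v docetaxel Cdh1 was at 71.9 and 92.2 CPM and Krt8 at 33.5 and 17.1. In EV docetaxel 2 Krt8 was at 122 CPM and Cdh1 at 0. Their part in the results was not tested either. Set against the mean of all 5 other conditions, docetaxel gave no edgeR call among the 37, with 1.1% of all genes called. DESeq2 called 0 (3.56% of the genes it tested), 2 of 37 had an unadjusted p under 0.05 (background 11.7%), and the median was -0.15. The 2 were Top2a (-0.67 ± 0.22, edgeR adjusted p = 0.20) and Plk1 (0.40 ± 0.17, edgeR adjusted p = 0.35).

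Which genes lay higher and which lower went along with the base composition of their transcripts, and also with their length. GC content of the 37 runs from 40.6% (Bub1) to 56.1% (Plk1). The first 90 coding bases of 4 genes, picked as examples, are shown with G and C in capitals (GENCODE M21, GRCm38, longest coding transcript). Top2a and Bub1 are among the negative and Plk1 and Ube2c among the positive differences.
Top2a: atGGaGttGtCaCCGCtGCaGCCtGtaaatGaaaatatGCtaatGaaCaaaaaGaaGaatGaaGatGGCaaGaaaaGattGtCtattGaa
Bub1: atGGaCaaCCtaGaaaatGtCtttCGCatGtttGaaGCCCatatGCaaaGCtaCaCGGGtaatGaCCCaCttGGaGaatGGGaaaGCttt
Plk1: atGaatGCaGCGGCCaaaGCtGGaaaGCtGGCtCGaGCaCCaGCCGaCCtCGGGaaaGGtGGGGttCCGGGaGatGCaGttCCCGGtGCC
Ube2c: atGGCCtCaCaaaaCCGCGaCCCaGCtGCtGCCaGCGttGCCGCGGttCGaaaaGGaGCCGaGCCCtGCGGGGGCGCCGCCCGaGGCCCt
In these stretches G and C make up 35.6%, 43.3%, 63.3% and 71.1% of the bases, and over the whole coding part 42.9%, 40.8%, 56.4% and 55.9%. The first 90 bases do not divide all 37 genes this way. Mki67 (64.4%) and Ccna2 (62.2%) had negative differences, and Ccnb2 and Pttg1 (both 48.9%) positive ones. Across the 37 genes the docetaxel difference correlated with GC content at Pearson r = 0.85 and Spearman rho = 0.85, and with coding GC content at r = 0.87. It was r = 0.64 in EV and 0.90 in IL27v. The genes share the same 8 libraries, so this describes these libraries and carries no p. The 18 genes above the median GC content had 13 positive differences and a median of 0.23, and the 18 below it had 0 positive and a median of -0.49. The difference also correlated with log2 exonic length at r = -0.63, and at -0.77 in EV and -0.44 in IL27v. In EV the r with length was thus larger in size than the r with GC content.

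The relation was not particular to mitotic genes. Over 8484 genes with mean levels in the range of the 37, r with GC content was 0.67, and over 50 other mitotic genes and 24 replication genes it was 0.84 and 0.78. With log2 exonic length r was -0.40, -0.30 and -0.27, in the same order. The slope on GC fraction of log2 level, taken relative to each gene's mean over all libraries, over 10814 genes of at least 5 CPM ran from -12.4 in IL27v media 1 to 10.97 in EV IL-27 1. The balance of GC-rich against GC-poor genes among the 37 (the mean log2 CPM of the 18 above the median minus the 18 below) was lowest and highest in the same libraries, at -1.11 and 0.83. In the media libraries the slopes were -1.87 and -2.71 for EV and -12.4 and -4.30 for IL27v, all negative, and in docetaxel -0.422 and 6.75 for EV and 3.25 and 2.63 for IL27v, so the docetaxel libraries had higher slopes than every media library.

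**Figure D3:**
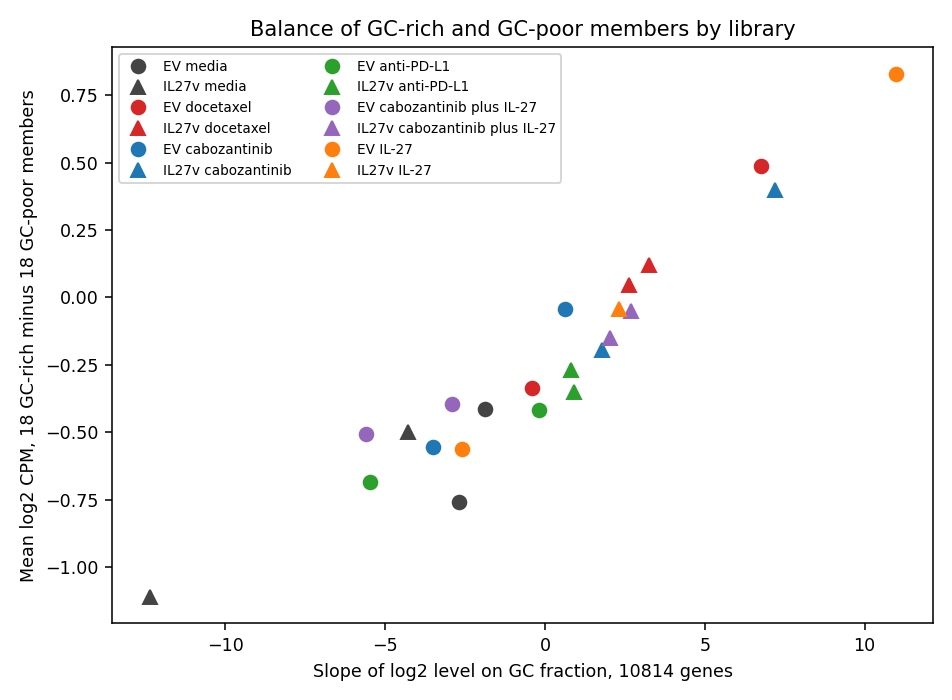
Each point is a library: the slope of log2 level on GC fraction over 10814 genes (x) against the mean log2 CPM of the 18 GC-rich minus the 18 GC-poor mitosis and spindle genes (y), circles for EV and triangles for IL27v. IL27v media 1 sits at the lower left (-12.4, -1.11) and EV IL-27 1 at the upper right (10.97, 0.83).

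When each library's GC trend, fitted on genes of at least 5 CPM, was removed by an offset, an alternative chosen after seeing the data, 31 of the 37 differences became smaller in size. The 6 that became larger were Birc5 (0.60 to 0.80), Ccnb2 (0.31 to 0.44), Pttg1 (0.18 to 0.43), Cdca8 (0.49 to 0.52), Kif20a (0.03 to 0.17) and Mad2l1, which changed sign (-0.24 to 0.31). The r of all 37 with GC content became 0.40, the median 0.00, and the GC-poor class had 8 positive differences of 18 and the GC-rich class 11 of 18. Their r with log2 exonic length went from -0.63 to -0.55 (-0.77 to -0.64 in EV), against -0.40 to -0.33 over the 8484 genes. edgeR called none of the 37, and 6 had an unadjusted p under 0.05, against 10.6% of all genes. The 6 with such a p kept their sign: Top2a (-0.53 ± 0.14, edgeR adjusted p = 0.11), Prc1 (-0.28 ± 0.13, 0.44), Birc5 (0.80 ± 0.28, 0.28), Ube2c (0.46 ± 0.18, 0.35), Cenpa (0.53 ± 0.22, 0.40) and Cdca8 (0.52 ± 0.22, 0.41). Over 35 alternatives, edgeR or DESeq2, the adjusted p ran from 0.0028 to 0.41 for Top2a, 0.056 to 0.76 for Prc1, 0.13 to 0.71 for Birc5, 0.032 to 0.54 for Ube2c, 0.17 to 0.72 for Cenpa and 0.15 to 0.75 for Cdca8. Plk1 went from 0.77 to 0.20 ± 0.17, Cdc20 from 0.82 to 0.42 ± 0.24, Bub1 from -0.71 to -0.20 ± 0.15 and Kif11 from -0.82 to -0.33 ± 0.17. Espl1, with 55.4% GC, went from 0.46 to -0.0025 ± 0.31. Within IL27v alone, the 13 genes with an unadjusted p under 0.05 became 1, Top2a (-0.63 ± 0.19), against a background of 10.8%, and the median went from -0.49 to -0.02.

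Role and GC content go together among these genes. All 4 genes of the anaphase-promoting complex and cohesin release and all 4 of the passenger complex are in the GC-rich class, while 5 of 6 kinetochore genes, 3 of 4 checkpoint genes and both cytokinesis genes are in the GC-poor class. With the GC trend removed, Espl1, Aurkb and Incenp had negative and Mad2l1 and Ttk positive differences. The anaphase-promoting complex and cohesin release, passenger complex and checkpoint genes thus no longer had a single sign. The cytokinesis genes Anln (-0.06) and Ect2 (-0.10) stayed negative.

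**Figure D4:**
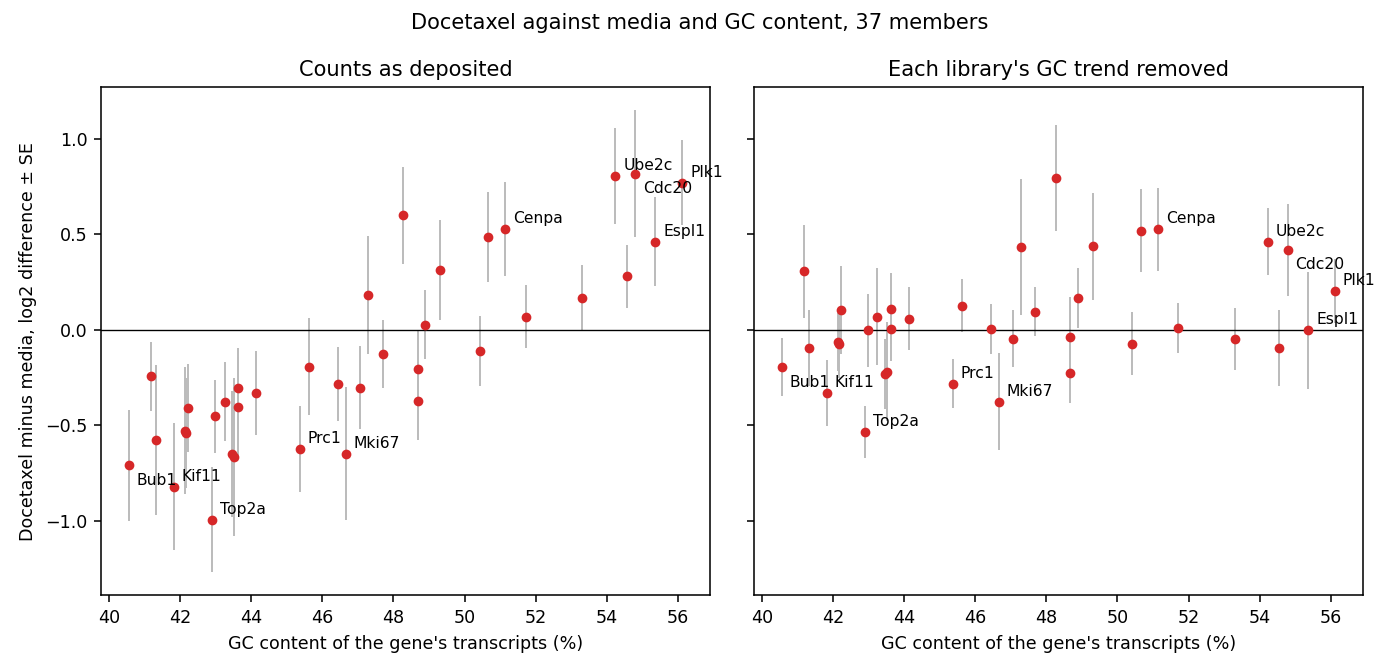
Docetaxel minus media, log2 difference ± SE, against the GC content of the gene's transcripts (%) for the 37 genes, from the counts as deposited (left) and with each library's GC trend removed (right). On the left values climb with GC content (r = 0.85), and on the right most lie near 0 (r = 0.40), with Top2a at -0.53 and Birc5 at 0.80.

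Other genes of the cell cycle were taken from lists, with genes named by the smallest p, and their counts stand beside the shares of all genes given above (1.79% and 9.51% called by edgeR and DESeq2, 15.3% with an unadjusted p under 0.05). Of 50 other mitotic genes edgeR called 1 in docetaxel against media, Gtse1, a microtubule-binding protein of G2 and M phase (1.23 ± 0.24, adjusted p = 0.018), while 13 had an unadjusted p under 0.05 (7 higher, 6 lower), DESeq2 called 4 and the median was -0.19. Gtse1 was at 22.8 and 21.0 CPM in the EV media pair and at 33.2 and 24.4 with docetaxel, and at 6.66 and 8.32 in IL27v media and 29.1 and 33.6 in IL27v docetaxel, with log2 differences of 0.39 in EV and 2.07 in IL27v. Of 24 replication genes 1 was called, Cdt1, which licenses replication origins (1.92 ± 0.37, edgeR adjusted p = 0.018), and the median was -0.06. Cdt1 had log2 differences of 0.93 in EV and 2.90 in IL27v. Of 14 cell cycle inhibitors and G1 cyclins 1 was called, Cdkn2a, the locus of the p16 and Arf inhibitors (2.47 ± 0.50, edgeR adjusted p = 0.020), with a median of -0.36. Cdkn2a had 1.64 in EV and 3.31 in IL27v. For Gtse1, Cdt1 and Cdkn2a the edgeR adjusted p was 0.82 within EV. Within IL27v, where docetaxel and set cannot be told apart, it was 0.0063, 0.0099 and 0.024. All 3 called genes are GC-rich, at 54.6%, 58.6% and 59.1%, and with the GC trend removed Gtse1 had 0.88 (edgeR adjusted p = 0.15), Cdt1 0.96 (0.085) and Cdkn2a 1.44 (0.029). A list of 11 genes held core subunits of the anaphase-promoting complex and its activator Fzr1. Of these edgeR called 0 and DESeq2 2, and 3 had an unadjusted p under 0.05. The smallest p belonged to Fzr1 (1.25 ± 0.36, edgeR adjusted p = 0.089), which had 0.04 with the GC trend removed. Anapc11, the RING subunit of the complex, had 1.25 ± 0.39 and kept 1.18 (edgeR adjusted p of 0.12 and 0.17). Of the inhibitor list, cyclin D3 (Ccnd3) had 1.10 ± 0.30 and the p21 gene Cdkn1a 0.66 ± 0.24, with edgeR adjusted p of 0.074 and 0.19. Without EV media 1, edgeR called 0 of all genes in docetaxel against media, the 3 named here included.

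**Figure D5:**
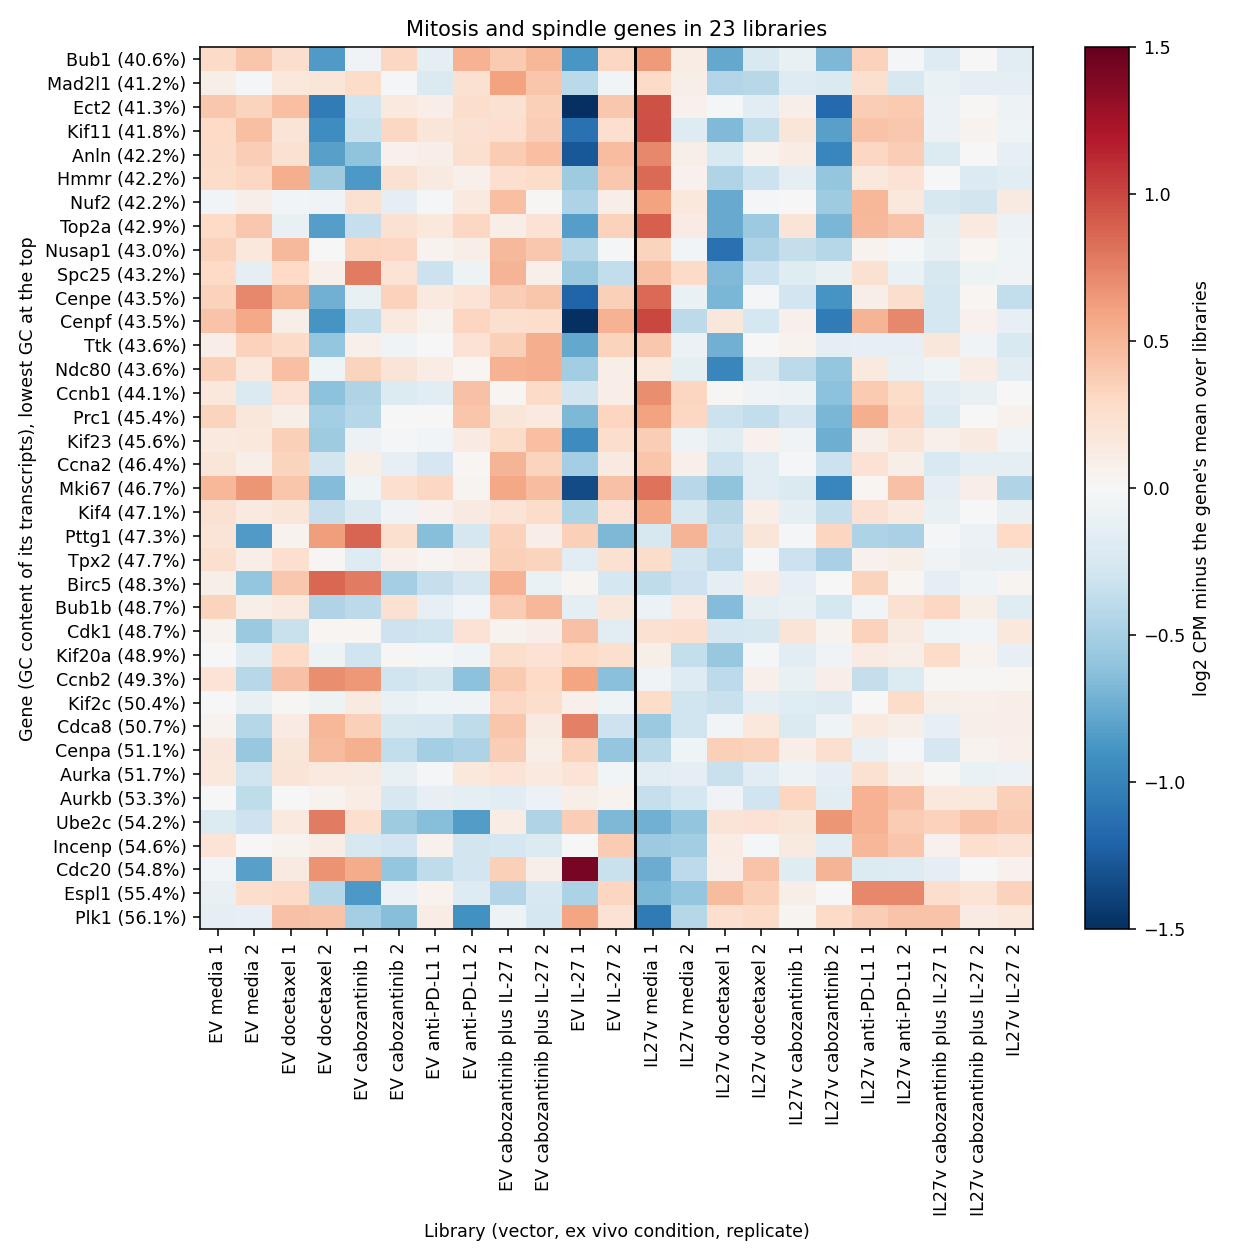
log2 CPM minus each gene's mean over the 23 libraries, for the 37 genes ordered by GC content (lowest at the top) and the libraries by vector and ex vivo condition, with a line between EV and IL27v. IL27v media 1 is high at the top and low at the bottom, and EV docetaxel 2, EV IL-27 1 and IL27v cabozantinib 2 are low at the top.

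Over the 23 libraries, the extremes fell most often in the libraries at either end of the range of GC slopes. The highest library was IL27v media 1 for 13 of the 37 genes and the lowest was EV IL-27 1 for 12. IL27v docetaxel 1 was the lowest library for 9. Cenpf, the longest of the set with 15433 exonic bases, varied most, from 7.99 CPM in EV IL-27 1 to 56.6 CPM in IL27v media 1 with a median of 29.8. Aurka varied least, from 55.8 to 82.5 CPM with a median of 68.6. Per kilobase of exon, mean levels over all libraries were highest for Ccna2 (48.4 CPM per kb), Top2a (48.1) and Cdc20 (44.3), and lowest for Nuf2 (4.10) and Cenpf (1.97).

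The other 4 exposures were compared with the same media libraries, so their values are not independent of the docetaxel ones or of each other. With cabozantinib, edgeR called none of the 37 and 0% of all genes, 5 had an unadjusted p under 0.05 (background 10.5%), DESeq2 called 0 (1.91% of the genes it tested) and the median was -0.24. The smallest p was for Prc1 (-0.69 ± 0.23, edgeR adjusted p = 0.38), at 76.4 and 102 CPM in EV cabozantinib and 85.8 and 63.5 in IL27v cabozantinib, all below the 4 media libraries. The share of all genes that lay apart in this way was counted for docetaxel only. With anti-PD-L1, edgeR called none of the 37 and 0% of all genes, 3 had an unadjusted p under 0.05 (background 5.85%), DESeq2 called 0 (0.56% of the genes it tested) and the median was -0.08. Espl1 had the smallest p (0.60 ± 0.23, edgeR adjusted p = 0.73), at 41.2 and 34.7 CPM in EV and 65.8 and 65.4 in IL27v anti-PD-L1, and only the IL27v pair lay above the 4 media libraries.

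With cabozantinib plus IL-27, edgeR called none of the 37 and 0.00409% of all genes, 2 had an unadjusted p under 0.05 (background 4.47%), DESeq2 called 0 (0.336% of the genes it tested) and the median was 0.05. Those were Ube2c (0.58 ± 0.25) and Plk1 (0.48 ± 0.22), each with an edgeR adjusted p of 0.88. With IL-27 alone, edgeR called none of the 37 and 0% of all genes, 5 had an unadjusted p under 0.05 (background 11.9%), DESeq2 called 0 (3.67% of the genes it tested) and the median was -0.29. All 5 were positive and lie in the GC-rich class: Plk1 (0.70 ± 0.24, edgeR adjusted p = 0.28), Cdc20, Aurkb, Incenp and Ube2c. Cdc20 was at 208 and 61.4 CPM in EV IL-27 and 81.0 in the single IL27v library, so the pair of EV libraries spanned a wider range than all 4 media libraries (44.0 to 75.2). Without EV IL-27 2, which leaves EV IL-27 1 alone in its group and assumes that it varies like the others, edgeR called 10 of the 37, 4 higher and 6 lower, in a fit that called 3821 of all genes in place of 0. Over the 37 genes r between the difference and GC content was 0.76 for cabozantinib, 0.77 for anti-PD-L1, 0.81 for cabozantinib plus IL-27 and 0.89 for IL-27, and 0.11, 0.17, 0.15 and 0.20 with the GC trend removed.

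A fit on the 9 EV libraries low in muscle and Ngp transcripts, added after seeing the data for the exposures other than docetaxel, tested 21457 genes. edgeR called none of the 37 for docetaxel, cabozantinib, anti-PD-L1 (1 library) or IL-27, and 0 had an unadjusted p under 0.05 in each, where 356, 254, 166 and 686 of all genes did. The medians were -0.05, -0.20, -0.19 and -0.19, and all genes called were 1, 0, 0 and 0.

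Between the vectors, taken as the mean of the 6 within-condition differences, edgeR called none of the 37 where 2.95% of all genes were called. At an unadjusted p under 0.05 there were 5 (background 14.5%), and the median was -0.06. DESeq2 called 2 (10.2% of the genes it tested), Nusap1 and Ndc80, both lower in IL27v. Nusap1 had a difference of -0.37 ± 0.12 (edgeR adjusted p = 0.11) and Ndc80 of -0.38 ± 0.13 (edgeR adjusted p = 0.14), and with the GC trend removed they were at -0.32 and -0.33. Ndc80 ranged from 31.4 to 65.5 CPM in EV and from 22.8 to 50.2 CPM in IL27v, so the vectors overlapped widely. The r between the vector difference and GC content was 0.49 over the 37 genes. The set low in muscle transcripts held EV libraries only and the set with muscle transcripts and no Ngp held IL27v libraries only, so vector and set cannot be told apart outside the 5 libraries with Ngp.

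Opposite-strand neighbours touch other genes of the 37 as well. Kif20a shares 29.3% of its exonic length with Cdc23, Kif4 15.1% with Pdzd11, Ccna2 12.5% with Exosc9 and Prc1 11.1% with Rccd1, and the shares for Plk1, Cdca8, Nusap1 and Cdc20 were 7.09%, 4.48%, 4.24% and 2.84%. Without a statement that counting used strand, the values of these genes carry that limit.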

How the data were processed

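The deposited table holds estimated counts per gene as whole numbers. The submitters' processing notes name cutadapt, HISAT2, StringTie and DESeq2 and the build GRCm38, without versions or roles, and the sources used here do not give the counting step or its use of strand. Of the deposited counts between 1 and 40, from 31.7 to 35.3% per library divide by 4, against 25% under an even spread, and 143 genes hold the same nonzero count in every library. The scale of the counts is therefore uncertain, and counting errors may be larger than the counts imply. All 23 columns matched a sample by name, but the labels of the 3 samples exposed to IL-27 alone all give the column name of the IL27v one, and the EV pair was matched by title and library name.

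The deposited counts were fitted unchanged with edgeR 4.0.16 in R 4.3.3 (TMM scaling, filterByExpr by group, quasi-likelihood test) in 1 model of 12 groups over 23 libraries. Benjamini-Hochberg adjustment ran over 24440 genes, with a threshold of 0.05. The SE given with each edgeR difference was derived from the test, as the size of the log2 difference divided by the square root of its F statistic. DESeq2 1.42.0 was an alternative. Symbols, exonic length, coding sequence and GC content came from GENCODE M21, promoters from RefSeq. Libraries were assigned to sets by Ngp of at least 5 CPM, summed muscle genes of at least 100 CPM, or over 20% of counts in 1 gene, thresholds set after seeing the data. The fit was also run on simulated counts, with less spread than these data, independent genes and no GC trends or tissue sets. That run checks the calculation only and does not show how the fit performs on these libraries.

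The 37 genes and all lists were chosen with earlier results of these data known. All 37 were described by role, with values in every media and docetaxel library for those with an unadjusted p under 0.05 in docetaxel against media and for Mki67. From each other list, genes called or among the 4 with the smallest p could be named. Replicate numbers did not pair the samples. Alternatives were other scaling, filters, DESeq2, a replicate block, subsets of libraries, GC and length trends, and each library left out.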

Additional observations from a re-analysis of the deposited data

How the results depend on the processing

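For docetaxel against media, 12 alternatives and 23 fits with 1 library left out called at most 3 of the 37 genes. DESeq2 called 2 higher and 1 lower, no low-count filter gave 2 lower (Top2a and Kif11), and a filter of 1 CPM in 4 libraries gave 1 higher (Plk1). In IL27v DESeq2 called 3 higher and 3 lower, no filter gave 1 lower and the 1 CPM filter 1 lower. Against the other 5 conditions, no filter gave 1 lower and leaving out the 3 libraries with the steepest GC trends 1 lower (Top2a). Between vectors DESeq2 called 2 lower, removing GC and length trends gave 1 higher, and leaving out the 3 steepest libraries gave 1 lower. Leaving out IL27v media 1, EV docetaxel 2 and EV IL-27 1, which were first taken for the steepest by mistake, gave 1 higher and 5 lower there. The GC settings and both sets of 3 libraries were chosen after seeing the data.

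With 1 library left out, counts ran from 0 to 1 higher and 0 to 1 lower for docetaxel against media, 0 to 1 and 0 to 2 in IL27v, 0 to 4 and 0 to 6 for IL-27 (the highest without EV IL-27 2, a fit that called 3821 of all genes in place of 0), and 0 to 2 lower between vectors (2 without EV IL-27 1). They stayed at 0 in the other comparisons. Calls in docetaxel against media came without EV anti-PD-L1 1 or 2 (Plk1), IL27v media 2 (Top2a and Plk1), EV IL-27 1 (Top2a) or EV IL-27 2 (Top2a and Ube2c). All genes called in that comparison ran from 0 (without EV media 1) to 1251 (without IL27v media 2), against 437. Over 35 alternatives the adjusted p ran from 0.0028 to 0.41 for Top2a, 0.0097 to 1 for Plk1 and 0.032 to 0.54 for Ube2c. Without IL27v IL-27 2, comparisons that need that group give no value. The fit with the replicate number as a block called 0 of the 37 in every comparison, and gave 289 in place of 437 for docetaxel against media: all genes called. That count was 1693 by DESeq2, 1843 with no low-count filter, 122 with GC and length trends removed, 272 without the 3 steepest libraries, 64 with only media and docetaxel libraries in the fit, 78 and 89 with the GC trend of all tested genes or of genes of at least 5 CPM removed, and 47 without IL27v media 1, EV docetaxel 2 and EV IL-27 1. Deviations of same-numbered libraries correlated at -0.67 to 0.52 (median 0.01), over 0.1 in 13 of 55 pairs of groups.

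Of the 37 log2 differences in docetaxel against media, 22 changed sign under at least 1 alternative. With the GC trend of genes of at least 5 CPM removed these were Ccnb1 0.0585, Ccna2 0.0034, Mad2l1 0.31, Ttk 0.0059, Espl1 -0.0025, Aurkb -0.0488, Incenp -0.0931, Ndc80 0.11, Nuf2 0.10, Spc25 0.0693, Kif23 0.13 and Tpx2 0.0958. With the trend fitted on all tested genes they were Aurka -0.0411, Mad2l1 0.11, Aurkb -0.0680, Incenp -0.0882 and Kif23 0.0089. With GC and length trends removed they were Ccnb1 0.0798, Ccna2 0.0165, Cdk1 0.0233, Aurka -0.0916, Mad2l1 0.46, Ttk 0.0640, Aurkb -0.11, Incenp -0.0650, Ndc80 0.22, Nuf2 0.22, Spc25 0.0186, Kif23 0.26, Kif4 0.0339, Tpx2 0.14, Nusap1 0.0075, Hmmr 0.0017 and Anln 0.0798. Without the 3 steepest libraries Kif2c was 0.0408 and Tpx2 0.0189. Without the 3 libraries first taken out Pttg1 was -0.10, Cenpf 0.0022, Kif23 0.15, Kif2c 0.10, Kif4 0.0812 and Tpx2 0.12. With 1 library left out Kif20a changed sign in 8 fits, ranging over all such fits from -0.12 to 0.14. Aurka ranged from -0.0373 to 0.11 and Pttg1 from -0.0307 to 0.41, both lowest without EV media 2. Kif2c ranged from -0.24 to 0.0366 and Tpx2 from -0.25 to 0.0161, both highest without IL27v media 1. Aurkb and Incenp were negative under all 3 GC settings. The causes were not tested.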
